A study of Arabidopsis thaliana with 6 samples.

Results

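A set of 46 genes of Arabidopsis thaliana, named in the platform annotation only by a nuclear locus tag, gave strong and nearly level signals in young and old seed pods. They were chosen from the measured values. A gene entered when its probe set had a deposited signal of at least 500 on all 6 arrays and when the highest of the 6 signals was at most 1.5 times the lowest. Of 22746 probe sets that are no controls, 11933 named 1 gene by locus tag alone. Of these, 137 reached the signal limit on every array, and 46 of the 137 (33.6%) also kept within the ratio limit. Each of the 46 probe sets stands for a different gene. The choice rests on the scaling as deposited: with each array centred on its median 28 genes met both limits, 20 of them among the 46, and with scaling on the hybridisation controls none of 42 abundant probe sets did. Because the limits use every array and both ages, steadiness itself is no finding here, and the values are given as a description.

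The study asked which transcripts change as siliques senesce. Siliques are the pods of Arabidopsis, in which 2 valves enclose the seeds and separate when ripe. Each of 6 Affymetrix ATH1 arrays carried total RNA of young pods (3 arrays) or old pods (3 arrays), and the titles number the replicates 1 to 3 within each age. All plants were of the Col-1 line (stock N1033), carried no stated transgene or treatment, and grew on compost in a glasshouse at 19 degrees C with 24 h of light. All 6 samples share 1 tissue label, mature and senescing pods, and 1 growth stage label, the shattering of the first pod. Only the titles separate young from old, and the labels do not say how age was judged. No label says that replicates came from separate plants, so every spread given here may be technical, and the number of arrays limits the precision.

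A transcript that keeps its level while an organ ages is of use as a reference against which others are read. Such transcripts are often sought among genes that every living cell needs, for making proteins, releasing energy or maintaining membranes. A signal on an array of a whole organ is an average over its cells. In such bulk RNA, fewer cells of a type and less RNA per cell cannot be told apart, and a level signal can also hide opposite changes in 2 tissues.

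The signals are MAS5 intensities, 1 per probe set on a linear scale. The mean of each array without the 2% of values at each end was 100 as deposited, so "steady" means steady relative to the average of the array. The median signal was 49.5 to 52.9 on the young arrays and 39.5 to 49.6 on the old arrays. Over the tested probe sets, Pearson's r lay between 0.858 and 0.951 for pairs of arrays of the same age and between 0.580 and 0.693 across ages. The hybridisation controls, transcripts added in known amounts, set the replicates apart in both groups: their mean log2 signal was 9.40 and 9.52 on the replicate 1 arrays, 8.29 and 8.04 on replicate 2 and 7.66 and 7.85 on replicate 3. The log2 ratio of 3 prime to 5 prime actin probe sets, a sign of RNA quality, was 3.05 to 3.19 in young pods and 3.40 to 3.79 in old pods, and that of GAPDH was 2.56 to 3.98 and 1.91 to 3.75. The part of these differences in the results below was not tested.

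Of 16 marker genes set for pod, seed, pollen and root, 5 had a named probe set. ALC, a regulator of the pod's separation layer, gave 412 to 786 on the 6 arrays. The seed coat gene BAN gave 1289 to 2715 in young pods and 8.2 to 46.8 in old pods. The seed storage gene PAP85 gave 14.9 to 25.9 in young pods, and in old pods 3701 on replicate 1 against 215 and 210.1 on replicates 2 and 3. The polygalacturonase gene ADPG1 of the dehiscence zone gave 45.1 to 102 in young pods and 901 to 1248 in old pods. The root hair gene EXPA7 gave 5.1 to 31.0, near the bottom of the scale. PAP85 in young pods and BAN on old replicates 2 and 3 lay within that same range. The seed markers thus differed between the ages, and PAP85 also between the old replicates.

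The functions of the 46 genes could be read from the annotation in 2 cases. All 46 matched a protein-coding gene of the TAIR10.1 reference table, none of them with a symbol there, and 44 had no descriptive synonym. The 2 described genes are AT1G54410, with the synonyms HIRD11 and dehydrin 11kDa, and AT5G58330, with the synonym NADP-dependent malate dehydrogenase. Dehydrins are very hydrophilic proteins that build up in drying seeds and in tissues short of water. NADP-dependent malate dehydrogenase is a plastid enzyme that turns oxaloacetate into malate, by which reducing power leaves the chloroplast. For the other 44 genes no role is stated, since neither table gives one.

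The dehydrin gene AT1G54410 had the strongest signals of the 46 probe sets. It gave 2925, 2759 and 2224 in young pods and 2808, 2488 and 1994 in old pods. In both groups replicate 1 was the highest and replicate 3 the lowest, and the groups overlapped. The log2 fold change, old over young, was -0.12 with a standard error (SE) of 0.23 from limma's fit over all probe sets (n = 3 arrays per group). Its highest signal was 1.47 times the lowest, close to the limit of 1.5.

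The malate dehydrogenase gene AT5G58330 gave 636, 709 and 623 in young pods and 503, 579 and 539 in old pods. All 3 old signals were below all 3 young ones. The means were 656 ± 46.5 and 540.4 ± 38.0 (SD, n = 3 arrays each), a log2 fold change of -0.28 with an SE of 0.17, which was the lowest among the 46. The old replicate 1 signal lay just above the limit of 500.

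The plot of member signals shows all 46 genes on the 6 arrays. Mean signals ran from 560.2 to 2533 with a median of 855. They were under 700 for 14 genes, from 700 to under 1000 for 20, from 1000 to under 2000 for 9 and above 2000 for 3. Signals of different probe sets depend on the probes as well as on the transcript, so this order is not an order of transcript levels.

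**Figure D1:**
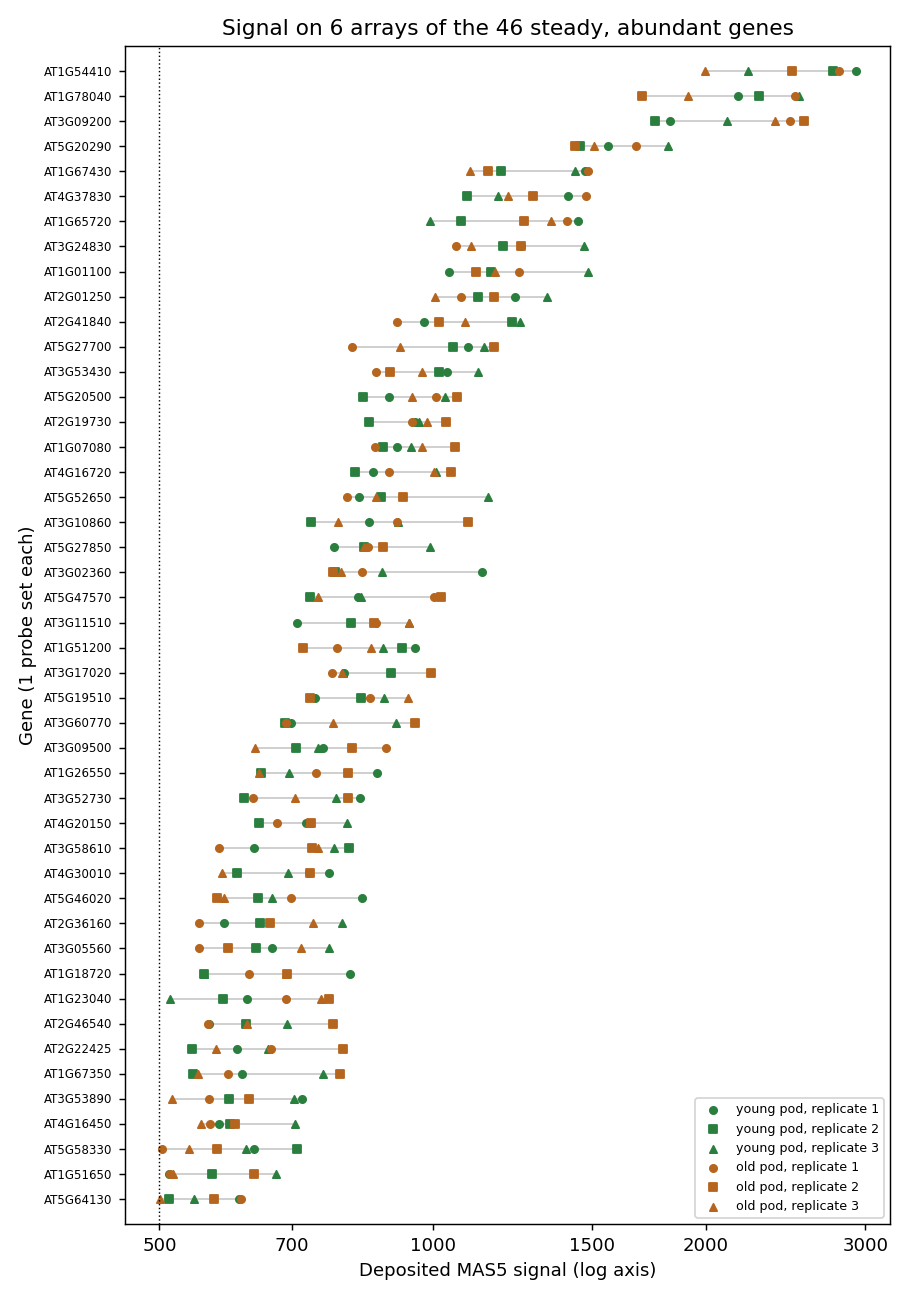
Deposited MAS5 signal (log axis) of the 46 steady, abundant genes, 1 row per gene and 1 point per array, with young pods in green and old pods in brown and the replicates as circle, square and triangle. The grey line spans the lowest to the highest signal, which is at most 1.5-fold, and the dotted line marks the limit of 500; in most rows the colours are mixed.

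Another 7 genes had the strongest signals after AT1G54410. AT1G78040 gave 2171, 2291 and 2537 in young pods and 2509, 1702 and 1914 in old pods. AT5G20290 gave 1563, 1452 and 1819 in young and 1676, 1435 and 1505 in old pods. In both genes the groups overlapped, and old replicate 2 gave the lowest signal. AT1G67430 gave 1474, 1189 and 1437 in young and 1484, 1151 and 1098 in old pods. AT4G37830 gave 1409.5, 1090.2 and 1182 in young and 1476, 1292 and 1210.3 in old pods. These 2 genes had their highest signal on old replicate 1, with young replicate 1 next to it. AT1G65720 gave 1446, 1075 and 994 in young and 1407, 1261 and 1350.2 in old pods. AT3G24830 gave 1250.0, 1195 and 1469 in young and 1062, 1251 and 1102 in old pods. The young arrays spanned both ends of the AT1G65720 range, and for AT3G24830 the highest was young replicate 3 and the lowest old replicate 1. AT3G09200, the last of the 7, is described below with the genes whose groups did not overlap.

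The most even signals, by the ratio of highest to lowest, came from 8 genes. AT2G19730 was the most even, with 958, 851 and 966 in young and 949, 1036 and 985 in old pods, a ratio of 1.22. AT1G07080 gave 913, 882 and 946 in young and 863, 1059.7 and 972 in old pods, a ratio of 1.23. AT5G64130 gave 612, 512 and 546 in young and 615, 574 and 501 in old pods, also 1.23. In these 3 genes the range of the old arrays reached past the young range at 1 end or both. AT4G20150 gave 726, 644 and 804 in young and 674, 734 and 730.1 in old pods, a ratio of 1.25. AT4G16450 gave 582, 597 and 705 in young and 569, 606 and 556 in old pods, a ratio of 1.27. Both had their highest signal on young replicate 3. AT5G20500 gave 896, 838 and 1031 in young and 1008, 1065 and 949 in old pods, a ratio of 1.27. AT4G16720 gave 859, 820.3 and 1009 in young and 896, 1048 and 1003 in old pods, a ratio of 1.28. Both were lowest on young replicate 2 and highest on old replicate 2. The eighth was AT5G20290, with a ratio of 1.27. Over all 46 the ratio had a median of 1.38, and it was above 1.2 in every gene, from 1.2 to 1.3 in 12, from 1.3 to 1.4 in 18 and above 1.4 in 16.

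Young and old pods were compared for all probe sets with limma, at an adjusted p threshold of 0.05 (Benjamini-Hochberg over 14277 probe sets tested). The limit on the ratio bounds every difference between the ages, so the counts that follow are printed beside the background and nothing is read from them. None of the 46 genes passed, and none had an unadjusted p under 0.05, while 22.0% of the probe sets tested passed (9.68% higher and 12.3% lower in old pods). Among the 516 probe sets of any naming that reached 500 on all arrays, 14.9% passed. The log2 fold changes of the 46 ran from -0.28 to 0.39 with a median of -0.02, and the median over all tested probe sets was -0.08. The SE was 0.17 to 0.23. The 95% confidence intervals of the 46 differences all held 0, and reached from -0.72 to 0.83 at their widest ends. In 20 genes the interval reached past the 1.5-fold limit (0.585 on the log2 scale), so 3 arrays per group do not bound those differences as tightly as the limit does. The log2 fold change was within 0.1 of 0 in 19 genes and within 0.2 in 37.

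The sign of these small differences depended on the scaling of the arrays. As deposited, 20 genes were above 0 and 26 below. With each array centred on its median, 45 of the 46 were above 0 and the median was 0.24, because that centring moved the median of all tested probe sets from -0.08 to 0.18. With quantile normalization 11 genes were above 0 and the median was -0.12. Relative to the median of all tested probe sets, the members' median was 0.065 higher as deposited and after median centring, and 0.126 lower after quantile normalization, which put the median of all tested probe sets at 0.01.

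The signals of young and old pods did not overlap in 5 of the 46 genes, against 40.9% of all tested probe sets and 38.4% of those above 500 on all arrays. AT3G09200 gave 1827, 1759.8 and 2113 in young and 2475, 2569.6 and 2383 in old pods. All old signals were above all young ones, and the log2 fold change of 0.39 (SE 0.19) was the highest of the 46. AT1G23040 gave 624, 587 and 514 in young and 689, 768 and 753 in old pods, a log2 fold change of 0.36 (SE 0.17). It was the second gene with all old signals higher, and the one nearest the ratio limit, at 1.495. Besides AT5G58330, 2 genes had all old signals lower. AT3G53430 gave 1038, 1016 and 1123 in young and 866, 898 and 973 in old pods (log2 fold change -0.22, SE 0.17). AT1G51200 gave 956, 924 and 882 in young and 784, 719 and 855 in old pods (-0.23, SE 0.17). In AT3G53430 and AT1G51200 the gap between the nearest young and old signals was smaller than the spread inside the old group.

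The other genes at the ends of the range of fold changes had overlapping groups. AT1G65720 was at 0.21 (SE 0.21), AT5G47570 at 0.20 (SE 0.20) and AT2G22425 at 0.16 (SE 0.20). AT5G47570 gave 827, 732 and 834 in young and 1003, 1021 and 748 in old pods, and AT2G22425 gave 608, 543 and 659 in young and 663, 796 and 578 in old pods. In both, old replicate 3 fell inside the young range while old replicate 2 was the highest. AT3G53890 was at -0.24 (SE 0.18), with 717, 596 and 703 in young and 567, 628 and 517 in old pods, and AT1G78040 at -0.21 (SE 0.22). The 95% interval of each of these differences held 0.

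Within a group of 3 arrays the members varied about as much in young as in old pods. The highest signal was a median of 1.24 times the lowest among the young arrays and 1.22 times among the old. The spread was wider in young pods for 25 genes and wider in old pods for 21. Over all tested probe sets these medians were 1.43 in young and 1.501 in old pods, and the median ratio over all 6 arrays was 2.14. The ratio limit also holds each member to at most 1.5 within a group, so its smaller spread is set by the choice.

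The variation that remained followed single arrays of both ages. Young replicate 3 held the highest of the 6 signals for 15 genes and old replicate 2 for 14, followed by young replicate 1 with 10, old replicate 1 with 4 and young replicate 2 and old replicate 3 with 2 each. AT3G11510 had the same highest signal on young replicate 3 and old replicate 3 and is counted under both. The lowest signal fell on young replicate 2 and old replicate 1 for 12 genes each, on old replicate 3 for 9 and on the other arrays for 3 to 6. The median deviation from a gene's own mean was 0.11 on young replicate 3 and 0.04 on old replicate 2 (log2), against -0.08 on young replicate 2 and -0.06 on old replicate 3. Of the 46 genes, 35 lay above their own mean on young replicate 3 and 11 on young replicate 2. Together the 46 probe sets gave 1.37% to 1.58% of the summed signal of each array, with 1.38% to 1.58% in young and 1.37% to 1.52% in old pods. Over the 516 probe sets above 500 on all arrays the median deviation was -0.05 on young replicate 3, opposite in sign to the members, and 0.05 on old replicate 2, close to theirs.

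**Figure D2:**
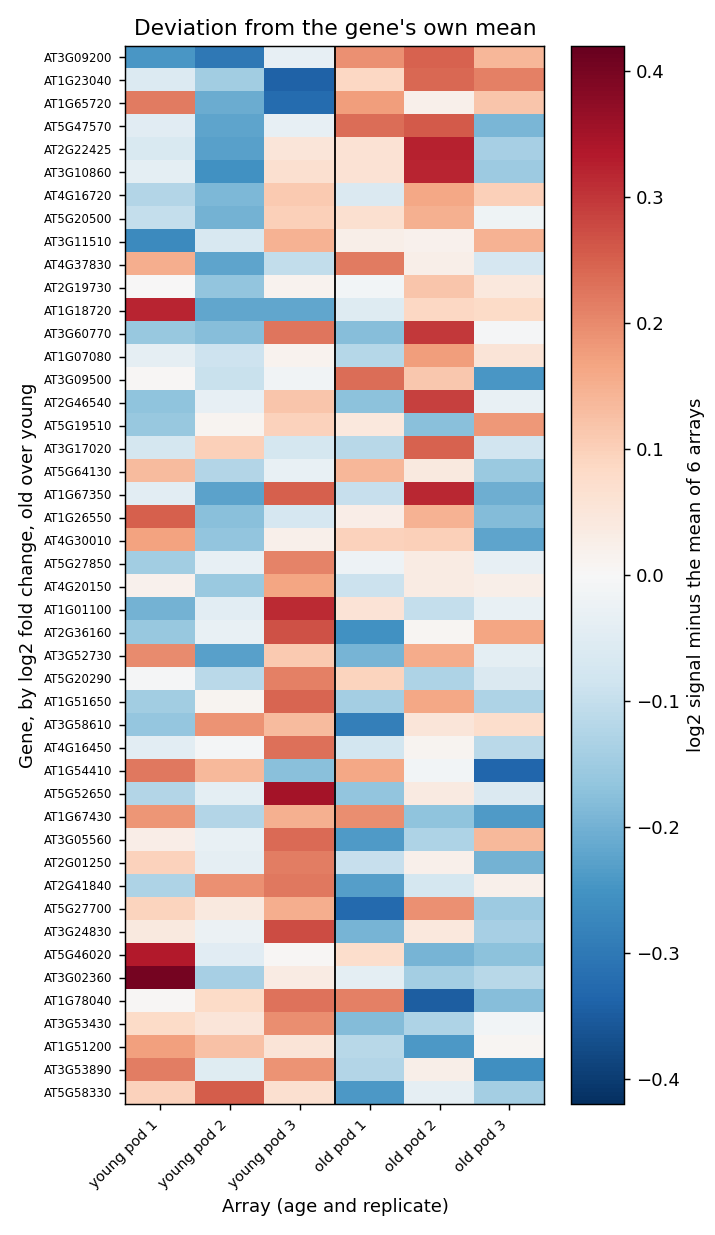
Log2 signal minus the gene's own mean over 6 arrays, for the 46 genes (rows, ordered by log2 fold change of old over young pods) on the 3 young and 3 old arrays (columns). Red is above and blue below the gene's mean; the column of young replicate 3 is mostly red, with 35 genes above their mean, and that of young replicate 2 mostly blue, with 11.

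A value that the limits did not use can be had by choosing genes on 5 arrays and reading the sixth. Leaving out each array in turn, 54 to 66 locus-tag probe sets met both limits on the other 5 arrays. Those that met both on the array left out as well are the 46 members by definition. They were 69.7% (old replicate 2 left out) to 85.2% (old replicate 3 left out) of the choice. Most of the rest were lost through the ratio: by ratio alone 6 to 19 probe sets, by the signal alone 0 or 1, and by both 1 to 4. The signal on the left-out array differed from the mean of the other 5 by a median of 0.17 to 0.26 on the log2 scale. For the 74 to 89 abundant locus-tag probe sets that were not steady on 5 arrays, that median was 0.21 to 0.35. It was larger than that of the steady ones for each of the 6 arrays. Those probe sets were chosen for a wide range on the 5 arrays, which includes differences between the ages. A larger distance on the sixth array is in part given by that choice, so nothing is read from it. The same arrays enter most of these choices, so the 6 comparisons are not independent.

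One gene chosen on 5 arrays differed by more than 2-fold on the sixth. AT2G25510 gave 3992, 4826 and 4626 in young pods and 5796 and 4185 on old replicates 2 and 3, but 12923 on old replicate 1. Its signal there was 1.48 above the mean of the others on the log2 scale, so it is no member. Among the probe sets that were not steady on 5 arrays, 1 to 6 differed by more than 2-fold on the array left out.

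**Figure D3:**
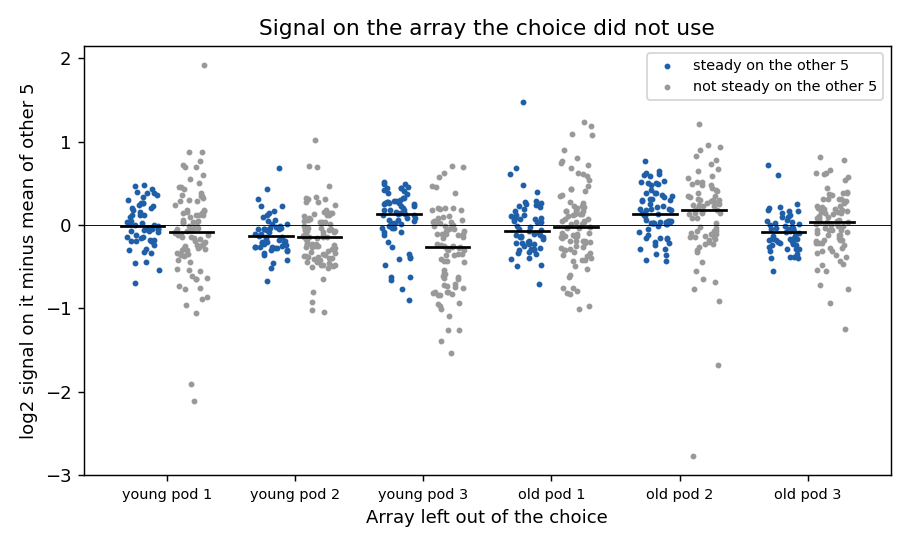
Log2 signal on the array left out of the choice minus the mean of the other 5 arrays, for abundant locus-tag probe sets that were steady (blue) or not steady (grey) on the other 5, by left-out array, with black bars at the medians. The median distance from 0 was 0.17 to 0.26 for the blue points and 0.21 to 0.35 for the grey ones, and the blue point far above the others is AT2G25510 on old replicate 1, at 1.48.

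The limits cut through a continuous range. Just inside the ratio limit were AT1G54410 (1.467), AT3G10860 (1.489), AT1G78040 (1.49) and AT1G23040 (1.495). Just outside were AT4G27090 (1.504), AT3G03150, AT3G14595 and AT3G04840 (each 1.509). AT3G10860 gave 851, 734 and 916 in young and 913, 1093 and 786 in old pods. AT4G27090 gave 1124, 1425 and 1641 in young and 1432, 1690.0 and 1535 in old pods. Within an age its highest signal was 1.46 times the lowest in young and 1.18 times in old pods. For AT3G10860 these ratios were 1.25 and 1.39. Just above the signal limit were AT5G64130, AT5G58330 and AT1G51650, whose lowest signals were 501, 503 and 512. AT1G51650 gave 512, 571 and 672 in young and 514, 635 and 518 in old pods. Just below it, with a ratio within the limit, were AT1G24360, AT1G10590 and AT2G35680, with lowest signals of 488, 462 and 458. Of the 91 abundant locus-tag probe sets beyond the ratio limit, 58 had ratios up to 2, 24 from 2 to 3 and 9 above 3. The widest was AT5G38160 at 7.99, with 5733, 2854 and 1893 in young and 1906, 718 and 1105 in old pods.

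**Figure D4:**
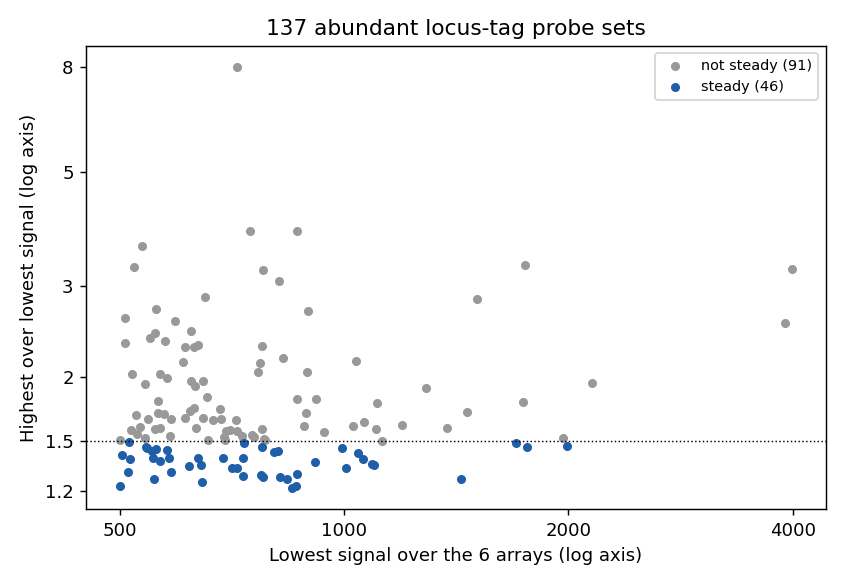
Highest over lowest signal (log axis) against the lowest signal over 6 arrays (log axis) for the 137 locus-tag probe sets with at least 500 on all arrays, with the 46 steady ones in blue and the 91 others in grey. The dotted line is the ratio limit of 1.5, and the points are continuous across it.

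Locus-tag genes made up 46 of the 128 probe sets of any naming that met the signal and ratio limits. Of the nuclear genes with a symbol, 42 reached 500 on all arrays and 5 of these (11.9%) were steady, against 33.6% of the locus-tag genes. Of 27 abundant probe sets for genes of the plastid and mitochondrial genomes none was steady, and their median ratio was 2.63. Among abundant probe sets without a named gene 63 of 275 (22.9%) were steady, and among those naming several genes 14 of 35. These shares are descriptions of the probe sets on this array and were not tested.

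The 5 steady genes with a symbol have known roles. GAPC2, a cytosolic glyceraldehyde-3-phosphate dehydrogenase of glycolysis, gave 1881, 2079 and 1828 in young and 2614, 1762 and 2228 in old pods. ALDH11A3, also called NP-GAPDH, oxidises the same substrate without phosphate and gave 776, 902 and 824 in young and 692, 620.2 and 630.3 in old pods. The old ALDH11A3 signals were all below the young ones, and those of GAPC2 overlapped. The other 3 were the autophagosome protein ATG8F, the microtubule-associated protein SPR1 and PGY1, a protein of the large ribosomal subunit, at log2 fold changes of 0.20, 0.24 and -0.11 (SE 0.20 each). Words for 17 functional classes were matched to symbols and synonyms of nuclear genes. The 44 members without a descriptive synonym gave no words to match, so the classes leave them out. Among the matched genes, 2 classes held a steady, abundant gene. Central metabolism had 5 abundant probe sets, of which AT5G58330 and GAPC2 were steady. The cytoskeleton class had 1, SPR1. ALDH11A3, ATG8F and PGY1, though steady and abundant, matched the words of no class, so the match also missed genes of known role. In 7 other classes none of the matched abundant probe sets was steady. These were 6 in photosynthesis and 3 in redox and antioxidant proteins. The ubiquitin class and the class of calmodulin, 14-3-3 proteins, kinases and phosphatases had 2 each. The mitochondrial, transporter and cell wall classes had 1 each. Members without a descriptive name may belong to any of these classes, so the counts do not show that a function lacks steady genes. No synonym matched the words for ribosomal proteins, translation factors or RNA binding, so those classes were not assessed.

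Loci often used as references for transcript levels in Arabidopsis were read in the same way. PEX4 gave 317, 271 and 316 in young and 211, 268 and 270.4 in old pods, a ratio of 1.503. The ratios of AT4G34270, AT2G28390 and AT5G46630 were 1.73, 1.82 and 2.12, at signals of 80.2 to 297. The members were picked for a small ratio and a strong signal and these loci were not, so the values stand side by side without a comparison.

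The share of steady probe sets was also read by bands of the lowest signal. Among locus-tag probe sets whose lowest signal was from 50 to under 100, 19.9% kept within the ratio limit. The share was 24.9% from 100 to under 200, 23.2% from 200 to under 500, 33.3% from 500 to under 1000 (37 of 111) and 39.1% from 1000 to under 2000 (9 of 23). None of the 3 above 2000 was steady. Over all probe sets the shares in the same bands were 17.8%, 22.7%, 22.1%, 24.6% and 25.6%, and 23.7% (9 of 38) above 2000.

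The 46 genes were spread over all 5 chromosomes. Chromosome 3 held 13 of them, chromosome 1 held 12, chromosome 5 held 10, chromosome 2 held 6 and chromosome 4 held 5. Chromosome 3 held 28.3% of the members, 24.2% of the abundant probe sets that were not steady and 20.5% of all locus-tag probe sets. No pair of members was adjacent among the protein-coding genes of the reference table. The closest pairs were AT1G67350 and AT1G67430, with 6 genes between them, and AT5G27700 and AT5G27850, with 15. AT1G67350 gave 616, 544 and 757 in young and 595, 791 and 552 in old pods. It and AT1G67430 both lay below their own means on young replicate 2 and old replicate 3 and above them on young replicate 3. On the other arrays they lay on opposite sides, so the closest pair shared its pattern only in part. The annotation named none of the 46 genes for a further probe set, so no member was read with a second set of probes. Probe sets without a named gene could not be searched in this way.

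The other 22 genes lay inside the ranges given, and all had overlapping groups. AT1G01100, AT2G01250, AT2G41840 and AT5G27700 had mean signals of 1203, 1157, 1078 and 1032 and log2 fold changes of -0.05, -0.18, -0.19 and -0.19. In the first 3 young replicate 3 was the highest array. Among those of lower signal, AT3G02360 was set by 1 array, with 1134 on young replicate 1 against 777 to 880 on the others. AT5G52650 was likewise highest on young replicate 3, at 1152 against 806 to 928. AT1G18720 gave 812 on young replicate 1 and 559 to 691 on the others, and AT5G46020 gave 835 on young replicate 1 and 579 to 698 on the others. The differences nearest 0 among the 22 were those of AT1G26550, AT1G67350, AT4G30010 and AT5G27850, at log2 fold changes of -0.005, 0.01, -0.015 and -0.017.

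Old replicate 2 was the highest array in another group of these genes. AT3G60770 gave 699, 688 and 911 in young and 689, 957 and 778 in old pods. AT3G17020 gave 799, 899.8 and 797 in young and 774, 997 and 794 in old pods. AT2G46540 gave 567, 622 and 691 in young and 566, 777 and 624 in old pods. Old replicate 1 was the lowest array for AT3G17020 and AT2G46540 and within 1 unit of the lowest for AT3G60770, so the old arrays spanned nearly the whole range. AT3G58610 gave 635, 809 and 779.6 in young and 582, 736 and 748 in old pods. AT2G36160 gave 589, 645 and 794 in young and 553, 662 and 739 in old pods. AT3G05560 gave 666, 639 and 769 in young and 553, 596 and 716 in old pods. These 3 were lowest on old replicate 1 and had their highest signal on a young array. AT3G11510 gave 708, 814 and 942 in young and 867, 862 and 942 in old pods. AT5G19510 gave 741, 834 and 885 in young and 853, 732 and 939 in old pods. AT3G09500 gave 758, 706 and 747 in young and 888, 816 and 637 in old pods. Old pods held the highest signal of AT5G19510 and both the highest and the lowest of AT3G09500, and the ages tied for the highest in AT3G11510. The last of the 22, AT3G52730, gave 831, 619 and 782 in young and 634, 807 and 705 in old pods, with both its extremes on young arrays.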

How the data were processed

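The deposited values are MAS5 intensities per the submitters' processing notes, 1 signal per probe set and sample; no source used here gives the version, detection calls or background settings. The authors' scaling to a common trimmed mean was read from the values. Of 22810 probe sets, 64 are controls. Genes were named from the platform annotation and matched by gene number to TAIR10.1. The members and lists were chosen with earlier results of these data known.

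Signals under 0.1 were set to 0.1 and taken as log2. Probe sets entered the test with at least 3 of 6 arrays over the array's 40th percentile. The test was limma 3.58.1 (R 4.3.3; lmFit, eBayes with a variance trend, two-sided), tested on simulated data. Young and old arrays of the same number shared deviations from their group means (r = 0.286, 0.113 and 0.119), so the replicate number was also fitted as a block. Named genes were those with the strongest signals, the lowest ratios, those nearest each limit and those with the most extreme fold changes; others named were chosen after their values were seen. Reference loci and the choice on 5 arrays were added later. Protein, promoter and closest-protein comparisons were not run, since no sequences were used here.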

Additional observations from a re-analysis of the deposited data

How the results depend on the processing

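The number of steady genes followed the limits. It was 93 with a signal limit of 300, 9 with 1000, 12 with a ratio limit of 1.3 (8.76% of abundant locus-tag probe sets), 104 with a ratio limit of 2 (75.9%) and 118 when the ratio of group means was limited in place of the whole range (86.1%). Scaling mattered as well. Quantile normalization gave 42, 35 of them among the 46. Median centring gave 28 (22.6%), 20 of them among the 46. Scaling on the hybridisation controls gave 0 of 42 abundant probe sets (0.0%); that scaling moves the replicate 1 arrays against replicate 3 by about the control difference given above, and it lowered the probe sets called from 3145 to 628. Leaving out 1 array gave 54 to 66 genes and shares of 38.7% to 47.1%. Fewer arrays can only loosen both limits, so each choice holds all 46 by definition and the number of genes cannot fall. That all 46 were kept is therefore no test of the set. With 1 array left out, 1736 to 3602 probe sets were called. The count was 1736 without old replicate 2, 1812 without young replicate 2, 1975 without young replicate 3 and 2047 without old replicate 3. With the replicate block 3480 probe sets were called, none of them a member, and the members' median was -0.018. No setting called a member by limma. The ratio limit bounds each member's difference in the deposited values, so this was largely given by the choice and nothing is read from it. The members' median log2 fold change was -0.116 with quantile normalization, 0.242 with median centring and -0.083 to 0.023 with 1 array left out. Median centring raised the share of called probe sets that were higher in old pods from 43.9% to 62.4%. Of 598 single-gene values under the alternatives, 550 stayed within 1 SD between replicates. The other 48 were all 46 members under median centring, which shifted every gene, and 2 under quantile normalization. Many of the 550 were fixed in advance. The replicate block, no filter, low signals raised to the percentile and no variance trend cannot move a member's fold change, and the median stayed at -0.018. Scaling on the hybridisation controls shifted all genes alike, to a members' median of -0.04. The alternatives that needed sequences or a protein table were not run.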
